A study of Sus scrofa domesticus with 11 samples.

Results

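The pericentral WNT target genes are 10 genes that hepatocytes around the central vein of the liver lobule express under WNT signalling: GLUL, AXIN2, LGR5, TBX3, RNF43, ZNRF3, NKD1, OAT, RHBG and SP5. They were read from the deposited table of 22029 genes by gene name, which found 8 of the 10. OAT and RNF43 carry no name there and were found by gene identifier, through a list of gene symbols and the table's own description of the 2 rows. All 10 had enough counts to be tested, among 13671 genes.

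Liver RNA was sequenced from Yorkshire piglets at day of life 15, with 5 libraries from animals given SEFA-6179 at 48 mg/kg and 6 from animals given MCT, the vehicle control, in the same volume, 3 ml/kg. All animals were born preterm and received parenteral nutrition, which is feeding by vein. SEFA-6179 is known here by its code name only, and MCT stands for medium-chain triglyceride. The libraries are taken as 1 animal each, and in the labelled tissue, liver, the summed level of 8 hepatocyte markers was 100627 to 190973 CPM (counts scaled to the size of the library) in SEFA-6179 libraries and 69926 to 177853 CPM in MCT libraries. The sex and litter of each animal and any batch were not given in the sources used here. EIF1AY, a Y-linked gene, had 0 counts in SEFA-6179 replicates 2, 3 and 5 and in MCT replicates 2 and 5. In the other libraries it had 350 to 495 counts, so the groups were not balanced for it.

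In the liver lobule, endothelial cells of the central vein secrete WNT ligands and R-spondins, and the hepatocytes next to them respond through beta-catenin. Without a WNT signal a destruction complex built on axins degrades beta-catenin. With a signal beta-catenin enters the nucleus, binds factors of the TCF family and switches on target genes. Much of the list consists of feedback regulators that limit the same pathway. LGR5 is a receptor for R-spondins and TBX3 a transcription factor. GLUL, RHBG and OAT carry out pericentral functions such as making glutamine from ammonia. Most of this is known from mice. Hepatocytes at the other end of the lobule, around the portal vein, express other genes, and their E-cadherin, encoded by CDH1, is a periportal marker.

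None of the 10 genes passed the test between SEFA-6179 and MCT livers (edgeR's quasi-likelihood test, Benjamini-Hochberg adjusted p below 0.05 over all tested genes), where 0.219% of all tested genes passed, 0.117% as higher and 0.102% as lower with SEFA-6179. The DESeq2 Wald test, which called 2.06% of the genes it gave an adjusted p, and limma called 0 of the 10 as well. By the adjusted p of the authors' deposited table, 0 of the 10 passed, against 1.16% of all genes. By edgeR 1 of the 10, NKD1, had an unadjusted p below 0.05, a mark that 10.8% of all tested genes reached. The log2 fold changes of the 10, SEFA-6179 over MCT, ran from -0.23 for ZNRF3 to 0.74 for NKD1 with a median of 0.07, against a median of -0.0015 over all tested genes. Of the 10, 7 lay above 0, against 49.8% of all tested genes. In 0 of the 10 did the groups fail to overlap, against 1.49% of all tested genes. In whole liver, fewer cells of a type and less RNA per cell cannot be told apart.

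**Figure D1:**
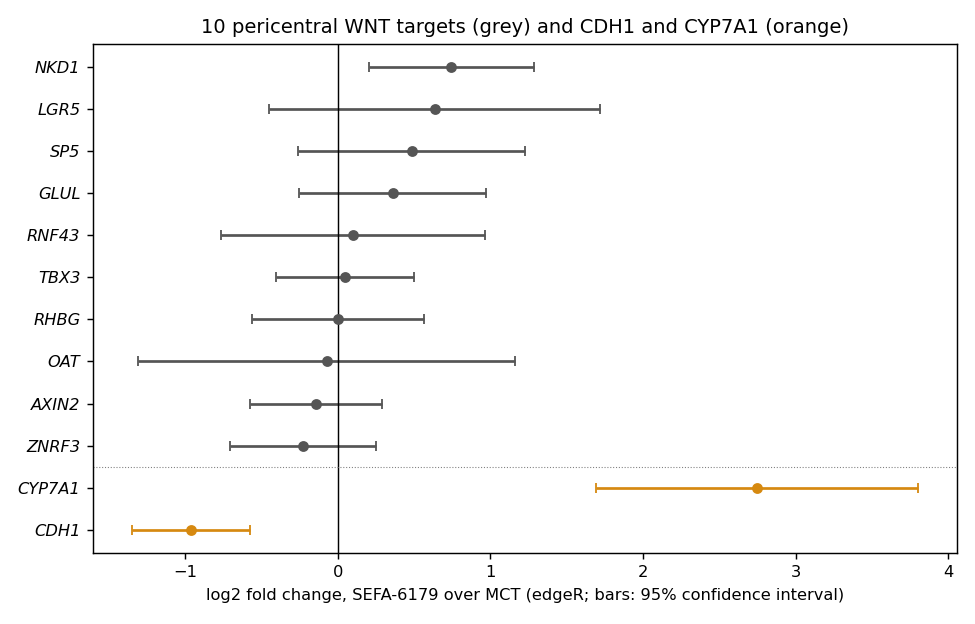
Log2 fold change of SEFA-6179 over MCT for the 10 pericentral WNT targets (grey) and for CYP7A1 and CDH1 (orange), from edgeR on 5 and 6 libraries, with 95% confidence intervals; the vertical line is 0. NKD1 is the 1 WNT target whose unadjusted interval, 0.20 to 1.29, lies clear of 0, while CYP7A1 at 2.75 and CDH1 at -0.96 lie outside the range of the targets.

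Total counts ran from 16821201 to 19215097 per SEFA-6179 library and from 15974977 to 23416071 per MCT library. On the first principal component of all tested genes, 1 library lay far out, MCT replicate 5 at 63.8, against -25.5 to 12.7 for the other 10. The summed level of 8 macrophage markers in SEFA-6179 replicate 4 was 838 CPM, against 1380.5 to 3436 CPM in the other 10. Without both of these libraries 1 of 13785 tested genes passed, and 0 of the 10 WNT targets, so that count says nothing about the targets.

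Per gene length the 10 genes spanned a wide range of levels, which the deposited FPKM values (fragments scaled for gene length and library depth) allow to be compared. GLUL was the most abundant, at 94.7 ± 30.6 FPKM in SEFA-6179 livers (SD, n = 5) and 74.1 ± 25.7 FPKM in MCT livers (SD, n = 6). RHBG followed at 36.2 ± 14.6 FPKM (SEFA-6179) and 36.2 ± 12.5 FPKM (MCT), and OAT at 10.1 ± 5.44 FPKM (SEFA-6179) and 10.6 ± 10.04 FPKM (MCT). These are the 3 members that handle nitrogen rather than the WNT signal itself. By group means the 7 regulators lay below them, from TBX3 at 4.68 ± 1.01 FPKM (SEFA-6179) and 4.54 ± 1.36 FPKM (MCT) to LGR5 at 0.402 ± 0.288 FPKM (SEFA-6179) and 0.258 ± 0.143 FPKM (MCT). The order of the 10 by group mean was the same in both groups except that SP5 lay above AXIN2 with SEFA-6179 and below it with MCT. Over all libraries the mean of AXIN2 was 2.42 FPKM and that of SP5 2.22 FPKM, with AXIN2 above SP5 in 9 of 11 libraries. ZNRF3 lay above RNF43 in 7 of 11, and RNF43 above NKD1 in 7 of 11, so these neighbours were not set apart by their spread. OAT lay above TBX3 in 9 of 11, the exceptions being SEFA-6179 replicate 1 and MCT replicate 5. GLUL lay above RHBG in 10 of 11. The exception was SEFA-6179 replicate 5, with GLUL at 46.6 FPKM and RHBG at 61.6 FPKM. RHBG lay above OAT, TBX3 above AXIN2, and NKD1 above LGR5 in all 11.

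**Figure D2:**
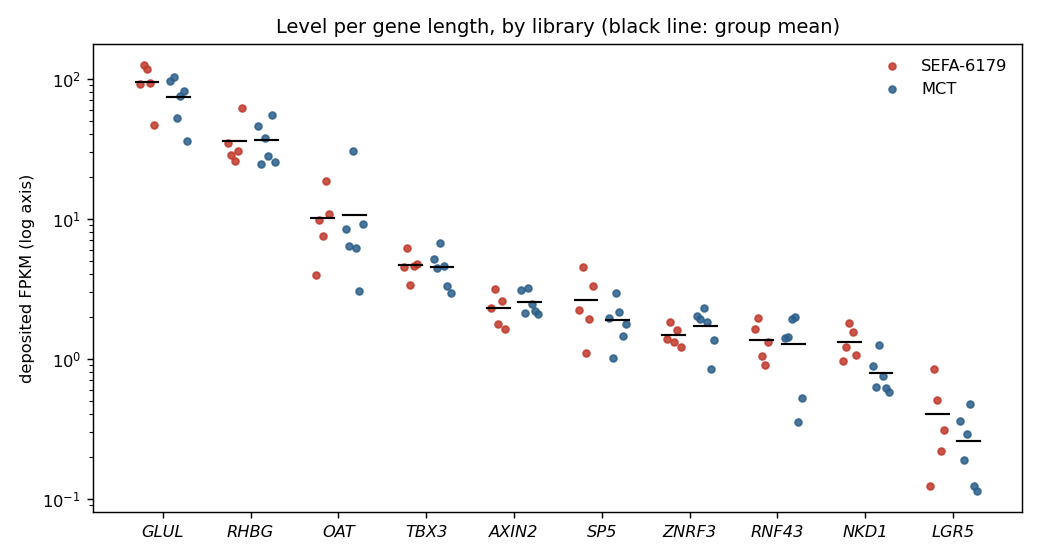
Deposited FPKM (log axis) of the 10 pericentral WNT targets in each library, SEFA-6179 in red and MCT in blue, with group means as black lines and genes ordered by their mean over all 11 libraries. By their means GLUL, RHBG and OAT lie above the 7 regulators and LGR5 is lowest. OAT lies above TBX3 in 9 of the 11 libraries.

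Of the feedback regulators, NKD1 differed most. NKD1 (chromosome 6, 34223884 to 34319528, on the coordinates of the deposited table, with a build not named there or in the labels) binds dishevelled and dampens the WNT signal. It was at 4.77, 6.01, 8.89, 7.74 and 5.24 CPM in SEFA-6179 replicates 1 to 5, against a lowest of 2.87, a median of 3.43 and a highest of 6.23 CPM in the MCT livers. All 5 SEFA-6179 livers lay above the MCT median, and 5 of 6 MCT livers lay below every SEFA-6179 liver, with MCT replicate 3 as the exception. The means were 6.53 ± 1.74 CPM in SEFA-6179 livers (SD, n = 5) and 3.89 ± 1.27 CPM in MCT livers (SD, n = 6), a 1.68-fold difference with a 95% interval of 1.15 to 2.44. Its log2 fold change of 0.74 ± 0.25 (SE) had an unadjusted p of 0.0104 by edgeR, the 499th smallest of all tested genes, and an adjusted p of 0.285, so it did not pass. In the authors' deposited table its adjusted p was 0.149. The unadjusted p stayed below 0.05 in all 19 alternative fits, between 0.0018 and 0.0470, and the adjusted p lay between 0.133 and 0.460.

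AXIN2 (chromosome 12, 12311293 to 12343200) encodes a scaffold of the destruction complex and is a widely used readout of beta-catenin activity. Its levels were 10.2, 13.9, 7.75, 11.4 and 7.21 CPM in SEFA-6179 replicates 1 to 5, against a lowest of 9.19, a median of 10.2 and a highest of 14.2 CPM with MCT. The groups overlapped, with replicates 3 and 5 of SEFA-6179 below all MCT livers. The fold was 0.907 with a 95% interval of 0.672 to 1.22 (log2 fold change -0.14 ± 0.20 SE, edgeR adjusted p = 0.853). The interval thus leaves room for a level up to 1.22-fold as high as with MCT, whereas that of NKD1 begins at 1.15. The 2 genes were not tested against each other.

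ZNRF3 and RNF43 encode related membrane ubiquitin ligases that remove WNT receptors from the cell surface. ZNRF3 was at 14.02, 18.7, 13.5, 16.4 and 12.4 CPM in SEFA-6179 replicates 1 to 5, against a lowest of 8.59, a median of 19.2 and a highest of 23.8 CPM with MCT. All 5 SEFA-6179 livers lay below the MCT median and 4 MCT livers lay above every SEFA-6179 liver, while MCT replicates 5 and 6 were low at 8.59 and 13.99 CPM. Its fold was 0.854 (95% interval 0.613 to 1.19, edgeR unadjusted p = 0.325 and adjusted p = 0.767). Without MCT replicate 5, the library that lay far out, its log2 fold change was -0.37 with an edgeR unadjusted p of 0.0443 and an adjusted p of 0.393. RNF43 was at 5.22, 6.35, 3.36, 2.92 and 4.25 CPM in SEFA-6179 replicates 1 to 5, against a lowest of 1.12, a median of 4.57 and a highest of 6.40 CPM with MCT. For RNF43 MCT replicates 5 and 6 were the lowest of all 11 livers, at 1.12 and 1.70 CPM. The fold of RNF43 was 1.07, and its 95% interval of 0.589 to 1.95 covers changes of either sign (edgeR adjusted p = 0.955).

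LGR5, the R-spondin receptor that marks the hepatocytes nearest the central vein in mice, was the least abundant gene of the list. It had 10 to 68 raw counts per SEFA-6179 library and 9 to 46 per MCT library, so its levels are coarse. They were 0.568, 3.93, 2.33, 1.01 and 1.42 CPM in SEFA-6179 replicates 1 to 5, against a lowest of 0.527, a median of 1.10 and a highest of 2.18 CPM with MCT. SEFA-6179 replicates 2 and 3 exceeded all MCT livers and replicate 1 was near the bottom. The fold of 1.55 had a 95% interval of 0.733 to 3.30 (edgeR adjusted p = 0.697), which reached higher than that of any other of the 10. Its log2 fold change of 0.64 dropped to 0.17 when SEFA-6179 replicate 2 was left out.

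TBX3 and SP5 encode transcription factors, and SP5 is known to restrain other WNT targets. TBX3 was at 22.8, 31.5, 17.0, 23.3 and 23.9 CPM in SEFA-6179 replicates 1 to 5, against a lowest of 15.0, a median of 22.9 and a highest of 34.3 CPM with MCT. Every SEFA-6179 liver lay within the MCT range, and the 95% interval of the fold, 0.754 to 1.41, was among the narrowest (edgeR adjusted p = 0.963). SP5 was at 4.43, 9.01, 2.17, 3.81 and 6.59 CPM in SEFA-6179 replicates 1 to 5, against a lowest of 1.99, a median of 3.67 and a highest of 5.84 CPM with MCT. SEFA-6179 replicates 2 and 5 exceeded every MCT liver, and 4 of 5 exceeded the MCT median. The fold of 1.40 had a 95% interval of 0.834 to 2.34 (edgeR adjusted p = 0.662).

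The effector genes gave no common direction. GLUL (chromosome 9, 123751548 to 123762547) encodes glutamine synthetase, which joins ammonia to glutamate in the last hepatocytes before the central vein. It was at 319, 438, 411, 325 and 163 CPM in SEFA-6179 replicates 1 to 5, against a lowest of 125, a median of 274 and a highest of 359.5 CPM with MCT. Of the SEFA-6179 livers 4 lay above the MCT median and replicates 2 and 3 above all MCT livers, but replicate 5 was lower than all MCT livers except replicate 6. The means, 331 ± 108 CPM in SEFA-6179 livers and 258 ± 88.8 CPM in MCT livers, differed 1.28-fold with a 95% interval of 0.839 to 1.96 (edgeR adjusted p = 0.697).

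RHBG encodes an ammonium transporter of the pericentral hepatocyte membrane. It was at 62.5, 51.2, 46.3, 54.8 and 111 CPM in SEFA-6179 replicates 1 to 5, against a lowest of 44.5, a median of 59.3 and a highest of 98.6 CPM with MCT. The groups overlapped, and SEFA-6179 replicate 5, the highest liver for RHBG, was the lowest of its group for GLUL. The means, 65.1 ± 26.2 CPM in SEFA-6179 livers and 65.0 ± 22.1 CPM in MCT livers, nearly coincided, and the 95% interval of the fold was 0.677 to 1.48 (edgeR adjusted p = 0.999).

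OAT encodes ornithine aminotransferase, which turns ornithine into a precursor of glutamate. It was at 11.1, 27.6, 21.2, 52.5 and 30.2 CPM in SEFA-6179 replicates 1 to 5, against a lowest of 8.48, a median of 20.7 and a highest of 86.6 CPM with MCT. The highest value belonged to MCT replicate 3, and the next MCT liver was at 25.9 CPM. The fold was 0.952 with a 95% interval of 0.404 to 2.24 (edgeR adjusted p = 0.982). Leaving out MCT replicate 3 gave a log2 fold change of 0.61 in place of -0.07 (edgeR adjusted p = 0.613).

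**Figure D3:**
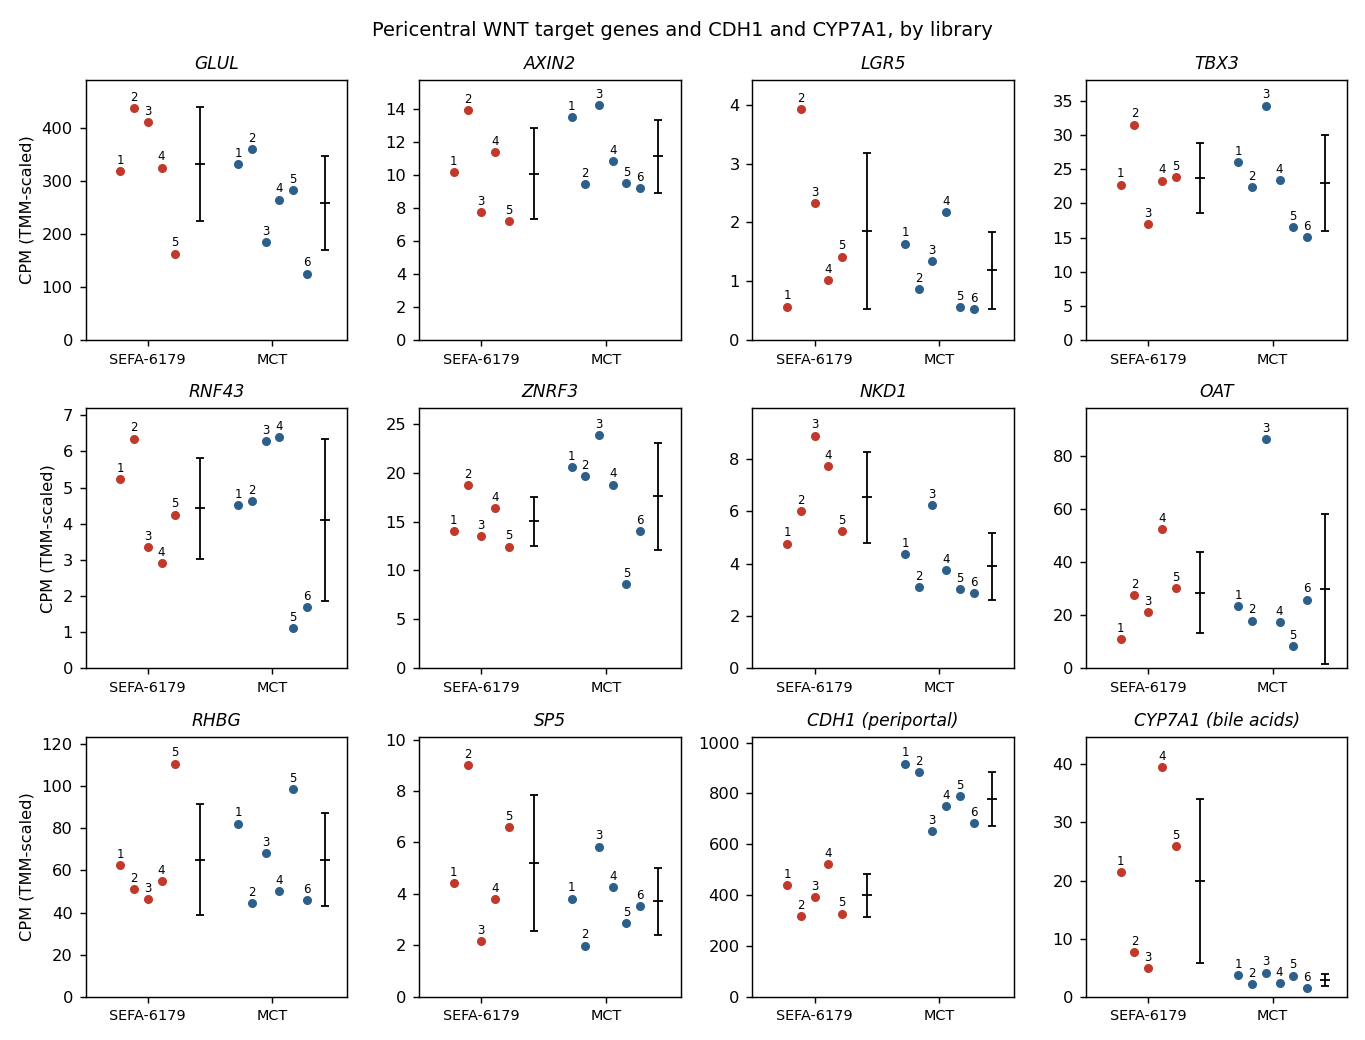
Level of each of the 10 pericentral WNT targets and of CDH1 and CYP7A1 in CPM, with SEFA-6179 libraries in red and MCT libraries in blue, each point labelled with its replicate number, and the mean and SD in black beside each group. The groups overlap for all 10 WNT targets, whereas every SEFA-6179 liver lies below every MCT liver for CDH1 and above every MCT liver for CYP7A1.

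Within each group the same libraries tended to be high or low for several regulators. How often each library was the highest or lowest over all tested genes was not counted. SEFA-6179 replicate 2 was the highest of its group for 7 of the 10 genes, namely GLUL, AXIN2, LGR5, TBX3, RNF43, ZNRF3 and SP5. MCT replicate 1 was the highest of its group for 0 of the 10. It lay above the group mean of log2 CPM for all 10, from 0.04 for OAT to 0.66 for LGR5. MCT replicate 3 was the highest of its group for 6, namely AXIN2, TBX3, ZNRF3, NKD1, OAT and SP5. That library also had the lowest summed level of the 8 hepatocyte markers, 69926 CPM, against 100627 to 190973 CPM in the others. The highest, 190973 CPM, was that of SEFA-6179 replicate 2. The scaling factor of MCT replicate 3, 1.22, was the highest of all 11 libraries. The part of the marker level or of the scaling factor in the levels of the WNT targets was not tested. MCT replicate 6 was the lowest of its group for 5, namely GLUL, AXIN2, LGR5, TBX3 and NKD1. RHBG did not follow, its highest levels being in replicate 5 of either group. The spread differed between genes as well, with a coefficient of variation in SEFA-6179 livers from 16.8% for ZNRF3 to 71.9% for LGR5, and in MCT livers from 19.99% for AXIN2 to 94.9% for OAT.

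**Figure D4:**
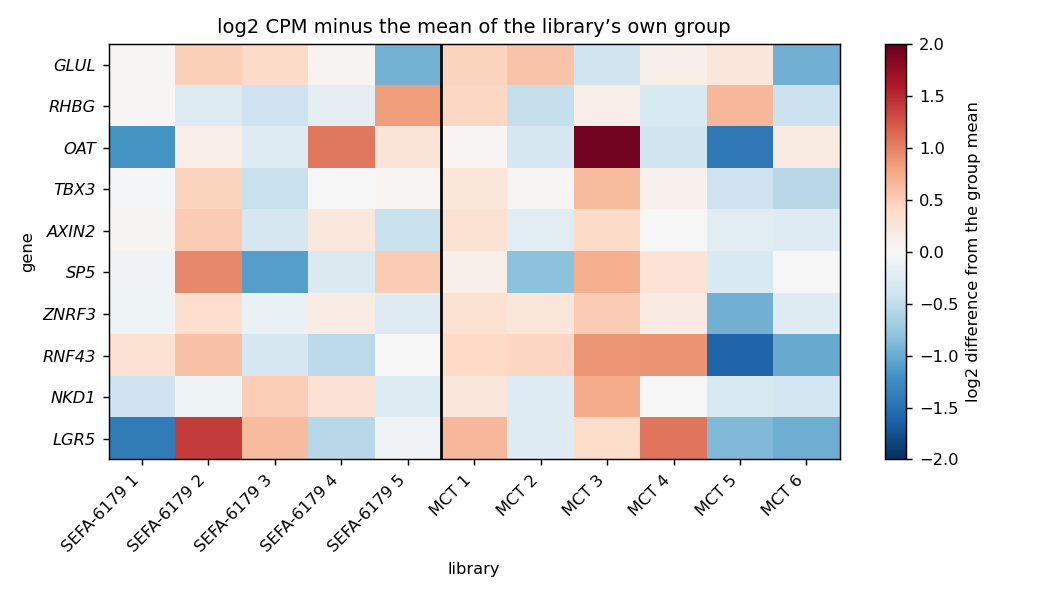
Log2 CPM of each WNT target in each library minus the mean of that library's own group, so that differences between the groups are removed; red is above and blue below the group mean, and the black line parts SEFA-6179 from MCT libraries. SEFA-6179 replicate 2 and MCT replicate 3 are above their group mean for most genes, and MCT replicate 1 is above it for every gene. MCT replicates 5 and 6 are mostly below it, and OAT in MCT replicate 3 is the largest positive value.

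Co-variation was measured for 9 pairs on log2 CPM centred on the group means, over 11 libraries, which share depth and scaling. AXIN2 and ZNRF3 had the highest coefficients, with Pearson's r = 0.66 (permutation p = 0.0099, adjusted over the 9 pairs 0.0892) and Spearman's rho = 0.76 (permutation p = 0.00482, adjusted 0.0434), so that rho passed and r did not. Without the 2 libraries farthest from the median of AXIN2, r was 0.63. AXIN2 with RNF43 had r = 0.49 and rho = 0.49 (permutation p = 0.0931 and 0.0993, adjusted 0.419 and 0.431; r = 0.52 without the 2 farthest), and AXIN2 with NKD1 had r = 0.43 and rho = 0.35 (permutation p = 0.202 and 0.337, adjusted 0.423 and 0.447; r = 0.51 without the 2 farthest). Neither passed. AXIN2 with GLUL, at r = 0.35 and rho = 0.26 (permutation p = 0.329 and 0.443, adjusted 0.423 and 0.447), fell to r = -0.06 without the 2 farthest libraries and rests on them. Pooled over both groups, GLUL had negative coefficients with the other nitrogen genes, none of which passed, with r = -0.34 and rho = -0.42 for OAT (permutation p = 0.327 and 0.228, adjusted 0.423 and 0.447; r = -0.49 without the 2 farthest) and r = -0.29 and rho = -0.27 for RHBG (permutation p = 0.413 and 0.447, adjusted 0.465 and 0.447; r = -0.27 without the 2 farthest). The other 3 pairs were AXIN2 with LGR5 (r = 0.40, rho = 0.35, r = 0.21 without the 2 farthest), GLUL with CYP7A1 (r = -0.22, rho = -0.47, r = -0.55 without them) and GLUL with CDH1 (r = 0.48, rho = 0.31, r = 0.19 without them). Within the groups the sign of r was not always the same: GLUL with RHBG and GLUL with CYP7A1 were negative among SEFA-6179 livers and positive among MCT livers, and AXIN2 with NKD1 was near 0 among SEFA-6179 livers and positive among MCT livers. The permutation p of the last 3 pairs ran from 0.144 to 0.582, with adjusted values of 0.423 to 0.582 for r and 0.431 to 0.447 for rho.

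CDH1 and CYP7A1 were read beside the list as a periportal and a pericentral gene. CDH1 was at 439, 318, 393, 523 and 328 CPM in SEFA-6179 replicates 1 to 5, against 651 to 917 CPM with MCT. CYP7A1, the first enzyme of classical bile acid synthesis, was at 21.4, 7.68, 4.91, 39.5 and 25.9 CPM in SEFA-6179 replicates 1 to 5, against 1.52 to 4.16 CPM with MCT. Neither pair of groups overlapped, and both genes passed by edgeR with an adjusted p of 0.0478. Their log2 fold changes were -0.96 ± 0.18 (SE) for CDH1 and 2.75 ± 0.49 (SE) for CYP7A1. The call was lost in 12 of 19 alternative fits for CDH1, with an adjusted p of up to 0.158, and in 14 of 19 for CYP7A1, with an adjusted p of up to 0.182. Over the same fits the log2 fold change stayed between -1.07 and -0.89 for CDH1 and between 2.30 and 3.00 for CYP7A1, and the unadjusted p stayed below 0.05 in all 19. DESeq2 gave adjusted p of 1.0e-05 for CDH1 and 1.2e-06 for CYP7A1, and the authors' deposited table gave 2.56e-05 and 5e-07. When 1 library was left out, CDH1 passed in 2 cases, the omission of replicate 4 of SEFA-6179 and of replicate 6 of MCT, and CYP7A1 in 2, the omission of replicates 2 and 3 of SEFA-6179. The liver with the most CYP7A1, SEFA-6179 replicate 4, was the highest of its group for 1 of the 10 WNT targets, OAT, and the lowest for 1, RNF43, and the 2 SEFA-6179 livers with the most GLUL, replicates 2 and 3, had the least CYP7A1 of their group. Cholangiocyte markers lay lower with SEFA-6179 in 7 of 7 tested cases, while 49.8% of all tested genes lay above 0. The median log2 fold change of these markers was -0.995. Their summed level was 37.9 to 76.0 CPM in SEFA-6179 livers and 54.3 to 142 CPM in MCT livers. Bile duct cells also express E-cadherin, and their part in the CDH1 result was not tested. Of these markers 0 passed by edgeR, CD24 being nearest with an adjusted p of 0.0539, and DESeq2 called 3, namely CD24, EPCAM and SOX9. DESeq2 called 2.06% of all genes it gave an adjusted p. None of the listed cholangiocyte genes had a count of 0 in all libraries.

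The ratio of GLUL to CDH1 in CPM describes these genes only, not pericentral against periportal RNA as a whole. The ratio was 0.726, 1.38, 1.05, 0.621 and 0.497 in SEFA-6179 replicates 1 to 5 and 0.183 to 0.406 in MCT livers. On the log2 scale it averaged -0.33 ± 0.59 with SEFA-6179 (SD, n = 5) and -1.67 ± 0.42 with MCT (SD, n = 6). The groups did not overlap in this ratio, and they did not overlap in CDH1 alone either. They did overlap in the summed level of the listed periportal genes other than CDH1. That sum was 14847 to 25000 CPM in SEFA-6179 livers and 14858 to 18948 CPM in MCT livers. CDH1 was known to differ when the ratio was chosen, so no test was made.

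Upstream of the list, none of the ligand genes passed the test. RSPO3, the R-spondin of the central vein, averaged 9.46 ± 2.75 CPM in SEFA-6179 livers, against 9.39 ± 2.08 CPM in MCT livers (log2 fold change 0.01 ± 0.22 SE, 95% interval -0.47 to 0.49, edgeR adjusted p = 0.994). WNT2, made by liver endothelium, was at 5.51, 8.09, 10.6, 3.57 and 14.2 CPM in SEFA-6179 replicates 1 to 5, against 2.47 to 7.32 CPM with MCT, with an unadjusted p of 0.04996 and an adjusted p of 0.464 by edgeR. WNT9B, the other ligand of the central vein in mice, was at 4.42 ± 1.82 CPM (SEFA-6179) and 3.61 ± 1.082 CPM (MCT) (edgeR adjusted p = 0.771). Of 25 listed genes of ligands, R-spondins and WNT secretion 10 were tested, 6 of them above 0, and 0 passed. For this list and those below, the share of all tested genes above 0 was 49.8%. Endothelial markers lay above 0 in 8 of 9 tested cases, with a median of 0.27 and a summed level of 334 to 538 CPM in SEFA-6179 livers and 277 to 510 CPM in MCT livers; 0 passed, 0 were at 0 in every library, and their part in the WNT2 values was not tested.

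Of the receptors other than LGR5, 11 were tested, 4 lay above 0 and 0 passed. LGR4, the broadly expressed R-spondin receptor, averaged 148 ± 60.8 CPM in SEFA-6179 livers, against 135 ± 29.8 CPM in MCT livers (edgeR adjusted p = 0.882). Per gene length LGR4 averaged 27.5 FPKM with SEFA-6179 and 25.1 FPKM with MCT, far above LGR5. FZD6, a frizzled receptor, had the smallest p of this list, at 6.93 ± 1.99 CPM (SEFA-6179) and 11.4 ± 2.22 CPM (MCT) (edgeR unadjusted p = 0.00417, adjusted p = 0.204).

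Of the signal transduction genes 18 were tested, 6 lay above 0 and 0 passed by edgeR. CTNNB1, which encodes beta-catenin, averaged 134 ± 25.0 CPM in SEFA-6179 livers, against 146 ± 21.6 CPM in MCT livers (log2 fold change -0.12 ± 0.16 SE, edgeR adjusted p = 0.834). TCF7L2, its main DNA-binding partner in the liver, was at 14.8 ± 4.41 CPM (SEFA-6179) and 11.8 ± 2.72 CPM (MCT) (edgeR adjusted p = 0.615). PYGO1, a nuclear cofactor of beta-catenin, was at 5.28, 3.23, 5.22, 4.11 and 4.99 CPM in SEFA-6179 replicates 1 to 5, all below the MCT range of 5.50 to 9.73 CPM. EdgeR gave it an adjusted p of 0.186 and DESeq2 one of 0.0379. It was the only 1 of the 18 that DESeq2 called, against 2.06% of all genes to which DESeq2 gave an adjusted p.

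Of the inhibitors other than RNF43, ZNRF3 and NKD1, 11 were tested, 4 lay above 0 and 0 passed by edgeR. NOTUM, a secreted enzyme that inactivates WNT ligands and is itself a WNT target in mouse liver, averaged 63.5 ± 20.3 CPM in SEFA-6179 livers, against 64.0 ± 21.7 CPM in MCT livers (log2 fold change -0.01 ± 0.26 SE, edgeR adjusted p = 0.994). KREMEN1, a receptor for Dickkopf inhibitors, had the smallest p, at 12.5 ± 3.56 CPM (SEFA-6179) and 22.0 ± 6.02 CPM (MCT) (edgeR unadjusted p = 0.00363, adjusted p = 0.197). SFRP1, a secreted WNT-binding protein named here after its values were seen, was at 14.6 ± 4.31 CPM (SEFA-6179) and 27.5 ± 9.57 CPM (MCT), which gave edgeR's adjusted p as 0.197 and DESeq2's as 0.049998, just under the threshold. The medians of the 4 pathway lists were 0.06, -0.08, -0.05 and -0.17 in the order given, against -0.0015 over all tested genes.

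**Figure D5:**
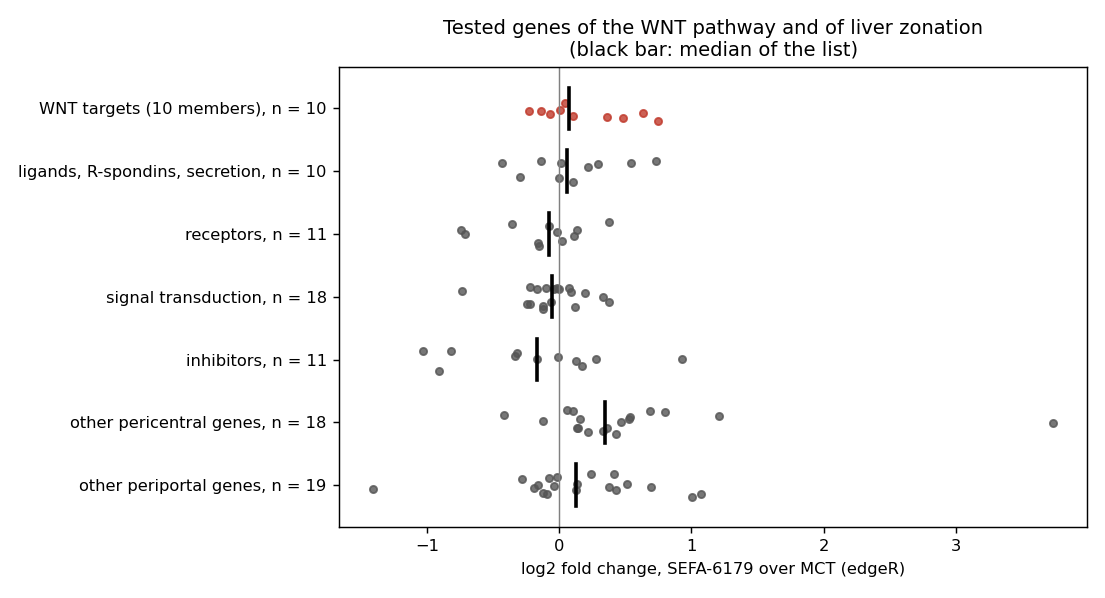
Log2 fold change, SEFA-6179 over MCT, of every tested gene of the 10 WNT targets (red), of 4 lists of WNT pathway genes and of 2 lists of other zonated genes, with the median of each list as a black bar and the number of tested genes in the label. None of the plotted genes passed by edgeR; the point at 3.74 is CYP8B1, and the 18 pericentral genes outside the WNT targets, CYP8B1 included, have a median of 0.35.

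Other zonated genes, known mostly from mice, were read from a pericentral list of 20 and a periportal list of 21 genes. Of 18 tested pericentral genes 16 lay above 0 with a median log2 fold change of 0.35, 3 had an unadjusted p below 0.05 and 0 passed by edgeR. The summed level of the pericentral list was 3225 to 6265 CPM in SEFA-6179 livers and 4101 to 5511 CPM in MCT livers. The groups thus overlapped, with SEFA-6179 replicate 3 the lowest of all livers. Over all tested genes 49.8% lay above 0 and 10.8% had an unadjusted p below 0.05 by edgeR. CYP8B1, the sterol 12-alpha-hydroxylase, was at 7.61, 0.173, 0.879, 14.3 and 8.25 CPM in SEFA-6179 replicates 1 to 5, against 0 to 1.46 CPM with MCT (edgeR adjusted p = 0.218). The cytochrome P450 gene CYP1A2 was at 28.8, 50.1, 15.2, 16.5 and 125 CPM in SEFA-6179 replicates 1 to 5, against 11.2 to 34.2 CPM with MCT (edgeR adjusted p = 0.477). CYP2E1 averaged 1625 ± 574 CPM in SEFA-6179 livers, against 1265 ± 249 CPM in MCT livers (edgeR adjusted p = 0.636). Of the SEFA-6179 livers, replicate 5 was the highest for CYP1A2 and CYP2E1 and the next after replicate 4 for CYP8B1.

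Of 19 tested periportal genes 10 lay above 0, with a median of 0.13, 4 had an unadjusted p below 0.05 and 0 passed by edgeR. The same shares of all tested genes, 49.8% and 10.8%, stand beside these counts. PCK1, of gluconeogenesis, ran from 2601 to 3397 CPM with SEFA-6179 and from 1196 to 2339.5 CPM with MCT, with no overlap; edgeR gave an adjusted p of 0.188 and DESeq2 one of 0.00868. CPS1, of the urea cycle, was at 1122 ± 355 CPM (SEFA-6179) and 1199 ± 732 CPM (MCT) (edgeR adjusted p = 0.959), and ASS1 at 1630.3 ± 411 CPM (SEFA-6179) and 1824 ± 315 CPM (MCT) (edgeR adjusted p = 0.825). GLS2, the periportal glutaminase that runs opposite to GLUL, averaged 116 ± 9.14 CPM in SEFA-6179 livers, against 141 ± 54.7 CPM in MCT livers (log2 fold change -0.28 ± 0.29 SE, edgeR adjusted p = 0.773), with the lowest level, 41.4 CPM, in MCT replicate 5. By edgeR, then, CDH1 passed while none of the other tested periportal genes did; whether they differ from CDH1 was not tested.

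Of the markers of other cells in the liver, 8 of macrophages were tested, 6 of them above 0 with a median log2 fold change of 0.49, and none passed. Their summed level was 838 to 3436 CPM in SEFA-6179 livers, with a median of 1933 CPM. In MCT livers it was 1380.5 to 2721 CPM, with a higher median of 2120 CPM. CD14 had their smallest p, with 893 ± 177 CPM in SEFA-6179 livers and 1291 ± 246 CPM in MCT livers (edgeR adjusted p = 0.314). Of 9 tested markers of stellate cells 2 lay above 0, with a median of -0.12 and a summed level of 539 to 915 CPM in SEFA-6179 livers and 711 to 1084 CPM in MCT livers. Their smallest p was that of COL1A2, a collagen chain (edgeR adjusted p = 0.225), and that of the endothelial markers was VWF (edgeR adjusted p = 0.397). Of the 8 hepatocyte markers 6 lay above 0, with a median of 0.26 and FGB as the smallest p (edgeR adjusted p = 0.555). The part of the number of each cell type in the levels of the WNT targets was not tested.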

How the data were processed

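Per the file headers, the authors deposited a raw count and an FPKM value per gene and library. Their table also holds a normalized signal, which the authors made by dividing counts by 1 size factor per library, and the means of that signal by group. It ends with the authors' own log2 fold change, raw p-value and adjusted p-value. The tools in the submitters' processing notes, given without roles, are DESeq2 1.20.0, HISAT2 2.0.5, featureCounts 1.5.0-p3 and StringTie 1.3.3b. The build and strand setting were not given in the sources used here. RNF43 shares bases with an opposite-strand gene of mean count 0.909, and SP5 with a same-strand gene of mean count 2.18. The overlap with SP5, 2637 bases, covers its whole span from 76902387 to 76905023. Its effect on the counts of SP5 was not tested. The other 8 WNT targets overlap no gene of the table.

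The deposited counts were analysed in R 4.3.3 with edgeR 4.0.16: filterByExpr (minimum count 10), TMM scaling (trimmed mean of M-values) and the robust, two-sided quasi-likelihood test over all 11 libraries, with Benjamini-Hochberg adjustment over 13671 genes and a threshold of 0.05. The fit was first tested on simulated data. Each standard error is the log2 fold change divided by the square root of its F. CPM are TMM-scaled. Correlations used 100000 permutations within groups (two-sided). DESeq2 1.42.0, limma 3.58.1, other filters and scalings, left-out libraries and a replicate block were the alternatives. The WNT targets, the other lists and the rule for named genes (the 10 targets, CDH1, CYP7A1, any called gene or else the smallest p of each list, and 12 pathway and zonation genes) were chosen with earlier results of these data known.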

Additional observations from a re-analysis of the deposited data

Results flagged for a closer look

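Of 68 groups of 5 or 6 libraries, from 34 named genes, 4 had an extreme library by Dixon's criterion; chance flags about 1 in 20 groups, which is 3.4 of 68. OAT reached 86.6 CPM in MCT replicate 3, where the next MCT liver had 25.9 CPM. RHBG reached 111 CPM in SEFA-6179 replicate 5, where the next SEFA-6179 liver had 62.5 CPM. CYP8B1 reached 1.46 CPM in MCT replicate 5, where the next MCT liver had 0.546 CPM. FGB, a fibrinogen chain named as the hepatocyte marker of smallest p, reached 33519 CPM in SEFA-6179 replicate 3, where the next SEFA-6179 liver had 15362 CPM.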

How the results depend on the processing

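The count of WNT targets past the threshold was 0 in all 19 alternatives. The count at an unadjusted p below 0.05 was 1 in all but 2 of them: without MCT replicate 5, and without it and SEFA-6179 replicate 4 together, it was 2. Over all genes 30 were called, against 276 by DESeq2, 62 by limma with library weights, 8 with a replicate block, 1 without the 2 libraries together and 6 with the level of EIF1AY, a Y-linked gene, as covariate. Leaving out 1 library gave 0 (without SEFA-6179 replicate 5 or MCT replicate 4) to 53 (without SEFA-6179 replicate 3). Of 189 log2 fold changes of single targets under the alternatives 22 changed sign, in OAT, RHBG, RNF43 and TBX3; the cause was not tested. RHBG was at -0.00051 with no filter on low counts. With limma TBX3 was at -0.025 and RNF43 at -0.085, and without the 2 libraries TBX3 was at -0.025. With the covariate OAT was at 0.37 and RHBG at -0.061, and the edgeR adjusted p was 0.0958 for CDH1 and 0.0603 for CYP7A1. Leaving out 1 library gave -0.41 to 0.61 for OAT, -0.28 to 0.16 for RHBG, -0.093 to 0.27 for RNF43 and -0.079 to 0.19 for TBX3. GLUL, AXIN2, LGR5, ZNRF3, NKD1 and SP5 kept their sign in every alternative that gave them a value; LGR5 has none under a minimum mean count of 50. Some came close to 0: LGR5 was at 0.019 with limma, against 0.64, AXIN2 at -0.046 without SEFA-6179 replicate 5, against -0.14, and SP5 at 0.20 without SEFA-6179 replicate 2, against 0.48. With the replicate block, which called 8 genes and 0 WNT targets, TBX3 was at -0.035, OAT at 0.22 and RHBG at -0.093. No pairing by replicate number was visible: same-numbered libraries correlated at -0.15 to 0.20, and 1 of 5 correlated best with its own number. These correlations cannot show whether animals shared a litter or a batch. The order of levels was the same with CPM per kilobase. LGR5 had 9 to 68 counts per library.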
